A study of Homo sapiens with 9 samples.

Results

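The 10 genes described here encode parts of the contractile actin cytoskeleton and 2 mesenchymal markers, and were taken from a fixed list of symbols: ACTA2, ACTG2, TAGLN, CNN1, MYL9, TPM1, TPM2, CALD1, THY1 and VIM. All 10 had a row among the 15983 genes of the count table. Of these, 9 were among the 12665 genes that passed the filter on low counts, and ACTG2 was not. They were measured in KGN, an established line from a human ovarian granulosa cell tumour, labelled WT throughout. After 12 h of fasting, 3 libraries each were made from cells given solvent alone, the lower insulin dose (0.5 µg/ml) or the higher dose (1 µg/ml) for 72 h, and total RNA was sequenced. The line was kept in DMEM with fetal bovine serum and antibiotics, and the medium during fasting and treatment is not described. Whether the libraries of a group stem from different dishes is not stated, so each p-value reflects the variation among these libraries, part or all of which may be technical.

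In contractile cells, actin filaments slide against myosin whose activity is set by its regulatory light chain, and tropomyosins, caldesmon and calponin sit along the filament and tune that interaction. Many of these genes are targets of serum response factor (SRF), which binds a DNA element called the CArG box and is switched on by the actin-sensing coactivators MRTFA and MRTFB. In the ovary, smooth muscle actin and its partners are best known from the theca and vessel walls, while vimentin is a standard marker of granulosa cells and of mesenchymal cells in general.

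Library totals ran from 18965722 to 20446405 counts. Replicate 1 at 0.5 µg/ml stood apart from the other libraries of its dose: a chi-square over genes, divided by its degrees of freedom, came to 7.75 and 8.19 against them, and to 2.17 between those 2. Between control libraries it ran from 3.73 to 6.50, and between those at 1 µg/ml from 2.58 to 5.14. Several values are also given without replicate 1 at 0.5 µg/ml, and the ranges of the 9 genes' fold changes with single libraries left out stand at the end. All 12 listed granulosa markers passed the count filter, and their means ran from 0.656 CPM for INHA to 172 CPM for GATA4 (TMM-scaled counts relative to library size, n = 9), with FOXL2 at 26.2 CPM, CYP19A1 at 8.31 CPM and WT1 at 4.56 CPM. Of the 9 listed markers of smooth muscle and pericytes, 7 had a row in the count table, and KCNJ8 and ABCC9 had none. MCAM stood at 690 CPM, CSPG4 at 136 CPM, RGS5 at 33.9 CPM, NOTCH3 at 32.5 CPM and CNN1 at 7.07 CPM. MYH11 had 12 counts and DES 40 over the 9 libraries. From a separate list of contractile genes, MYLK stood at 251 CPM, SMTN at 19.8 CPM and LMOD1 at 15.9 CPM. Of 15 epithelial markers 10 passed the filter, as did 5 of 9 smooth muscle and pericyte, 3 of 10 endothelial and 3 of 12 blood and immune markers, and among the epithelial ones KRT18 stood at 1756 CPM, KRT8 at 55.1 CPM and CDH1 at 4.99 CPM, while EPCAM had 7 counts in all. In bulk RNA, fewer cells with a transcript and less transcript per cell cannot be told apart.

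The smooth muscle actins gave a clear contrast in level, and their promoter windows are shown because both hold a pair of CArG boxes, exact in ACTG2 and inexact in ACTA2. RefSeq windows from 250 bases before to 50 after the start were at hand for 7 of the 10 genes, 12 windows in all; TAGLN, MYL9 and THY1 had none. An exact CArG box was present in 454 of 35116 promoters of that length (1.29%), and among the 12 windows only in that of ACTG2, which held 2. The CArG consensus is its own reverse complement, so the search covers both strands. The window of ACTA2 that lies 3′ of its other annotated start held 2 boxes that each differ from the consensus at 1 base, a looser match that, together with exact boxes, occurs in 18.9% of all promoters. VIM and 2 of the 4 CALD1 windows held 1 such inexact box each, and the windows of CNN1, TPM1 and TPM2 held neither kind. In the stretches below, 5′ to 3′ on the gene's strand of GRCh38.p14, capitals mark the exact boxes of ACTG2, whose window also held 1 inexact box, and the inexact boxes of ACTA2. For ACTG2, chr2:73892878-73892964 on the + strand, they lie 110 to 101 and 73 to 64 bases before the start; for ACTA2, chr10:88952815-88952914 on the - strand, they lie 121 to 112 and 71 to 62 bases before it.
ACTG2: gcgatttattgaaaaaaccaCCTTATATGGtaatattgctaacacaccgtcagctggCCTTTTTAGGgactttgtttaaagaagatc
ACTA2: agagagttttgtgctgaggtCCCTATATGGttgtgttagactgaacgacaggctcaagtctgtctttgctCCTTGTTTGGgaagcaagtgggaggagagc

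The 2 transcripts differed widely in level. ACTG2, the enteric smooth muscle actin, had 3 counts in control replicate 3 and 0 in the other 8 libraries; a count of 0 allows at most 0.146 to 0.159 CPM, depending on the library. No fold change is given for it, since every group lay at or under that limit. ACTA2, smooth muscle alpha actin and the usual marker of myofibroblasts, stood at 405 ± 43.4 CPM, with 6708 to 9680 counts in a library. No stretch of at least 100 bases with 98% identity was shared by the principal transcripts of these actins. A box is a match of letters, and binding was not tested.

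Compared per length, on the deposited FPKM scale (fragments relative to gene length and library size), the order of levels over the 9 libraries was VIM, TPM1, CALD1, ACTA2, MYL9, THY1, TAGLN, TPM2 and CNN1. VIM, an intermediate filament protein, averaged 2095 ± 56.8 FPKM and TPM1, the alpha tropomyosin, 354 ± 13.2 FPKM (SD, n = 9). CALD1, caldesmon, followed at 282 ± 12.1 FPKM, ACTA2 at 224 ± 23.7 FPKM and MYL9, a regulatory light chain of myosin II, at 178 ± 9.48 FPKM. The step below MYL9 was 4.16-fold, to THY1, a surface glycoprotein of fibroblasts and other stromal cells, at 42.9 ± 2.04 FPKM. TAGLN, transgelin, an actin-bundling protein, stood at 26.2 ± 4.65 FPKM, TPM2, the beta tropomyosin, at 10.97 ± 0.879 FPKM and CNN1, the smooth muscle form of calponin, at 2.93 ± 0.564 FPKM. The ranges of neighbours in this order did not overlap except for ACTA2 (190 to 267 FPKM) and MYL9 (168 to 198 FPKM), and ACTA2 was above MYL9 in 9 of 9 libraries.

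**Figure D1:**
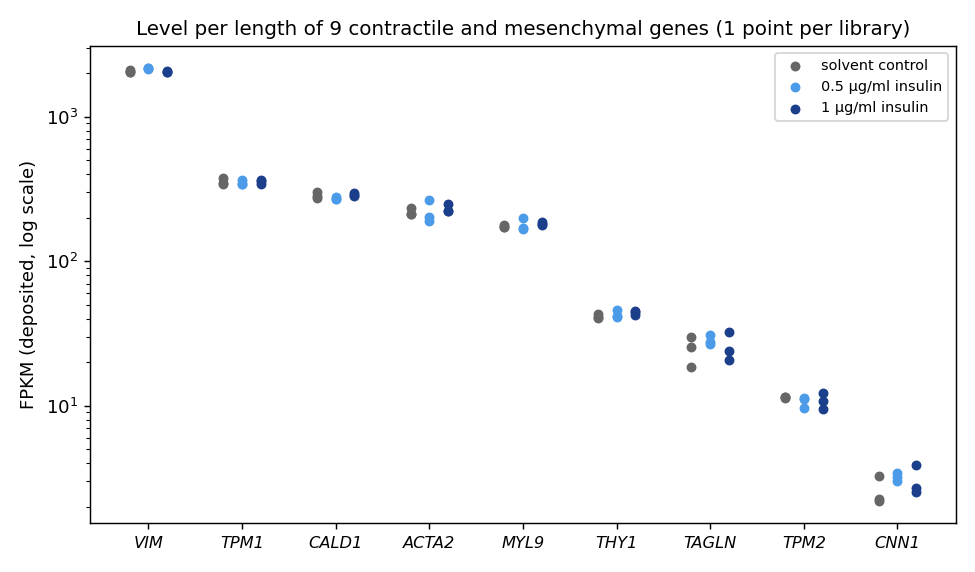
Deposited FPKM on a log axis for 9 genes, ordered by mean, with 1 point per library and colours for solvent control, 0.5 µg/ml and 1 µg/ml insulin. The genes span from 2.93 FPKM for CNN1 to 2095 FPKM for VIM, while the 3 groups of each gene lie close together; ACTG2, listed at 0 in 8 libraries, is not drawn.

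This order depends on the length assigned to each gene. The deposited values imply 3966 bases for TPM1, whose GENCODE release 29 principal transcript has 1049, and 4259 bases for TAGLN, whose principal transcript has 2166. With the principal lengths, chosen as an alternative after seeing the data, all 9 ranks were as before; with all annotated exons as the length, MYL9 moved to rank 2 and TPM1 to rank 5. Comparisons of 1 gene between groups do not use length.

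Several loci share sequence with a neighbour, and the strand setting of the counting is not given in the sources used here. ACTA2 (chromosome 10, 88935074 to 88991339, - strand, hg38) shares 12.8% of its exonic bases with FAS and 17.3% with ACTA2-AS1, both on the other strand. TAGLN (chromosome 11, 117199321 to 117204782, + strand) shares 11.4% with PCSK7. VIM (chromosome 10, 17228259 to 17237593, + strand) shares 12.4% with VIM-AS1 and 12% with AL133415.1. TPM1 (chromosome 15, 63042632 to 63071915, + strand) shares 16.1% with TPM1-AS and 5.37% with AC079328.2. THY1 (chromosome 11, 119417378 to 119424985, - strand) shares 10.7% with AP003396.5. Of these neighbours, FAS and PCSK7 had rows in the count table, with 4338 and 7439 counts over the 9 libraries. The others had none. If strand was not used, reads from the shared stretches may stem from either gene. The levels of ACTA2, TAGLN, VIM, TPM1 and THY1 are then uncertain by an unknown amount. The shares above are of all annotated exons. Of the principal transcript, 36.2% of ACTA2, 36.3% of VIM, 20.4% of TAGLN and 18.1% of THY1 matched transcripts of other genes, and 0% of TPM1. Such a match had at least 100 bases and 98% identity. CNN1 (chromosome 19, 11538717 to 11550323, + strand), MYL9 (chromosome 20, 36541484 to 36551447, + strand), TPM2 (chromosome 9, 35681992 to 35690121, - strand) and CALD1 (chromosome 7, 134744252 to 134970728, + strand) overlapped no other gene's exons.

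No contractile or mesenchymal gene passed the test in any comparison. At 0.5 µg/ml against control the edgeR quasi-likelihood test with Benjamini-Hochberg adjustment called 0 of 9 genes, on a background of 0 of 12665 (0%), and 0 of 9 had an unadjusted p under 0.05, where 6.13% of all tested genes did. At 1 µg/ml against control the counts were again 0 of 9 and 0%, with 0 of 9 at an unadjusted p under 0.05 against 2.36% of all genes. Between 1 and 0.5 µg/ml they were 0 of 9 and 0%, with 0 of 9 against 5.68%. DESeq2, run without the count filter, also called 0 genes in each comparison, with 573, 173 and 487 of 15981 genes at an unadjusted p under 0.05 in the same order. In the plot of fold changes, the 95% intervals of 8, 8 and 9 of the 9 genes stayed inside a 1.5-fold change in both directions. The same held for 11113, 11178 and 11125 of all 12665 tested genes, so such intervals were usual. CNN1 was the exception among the 9 against control at both doses.

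**Figure D2:**
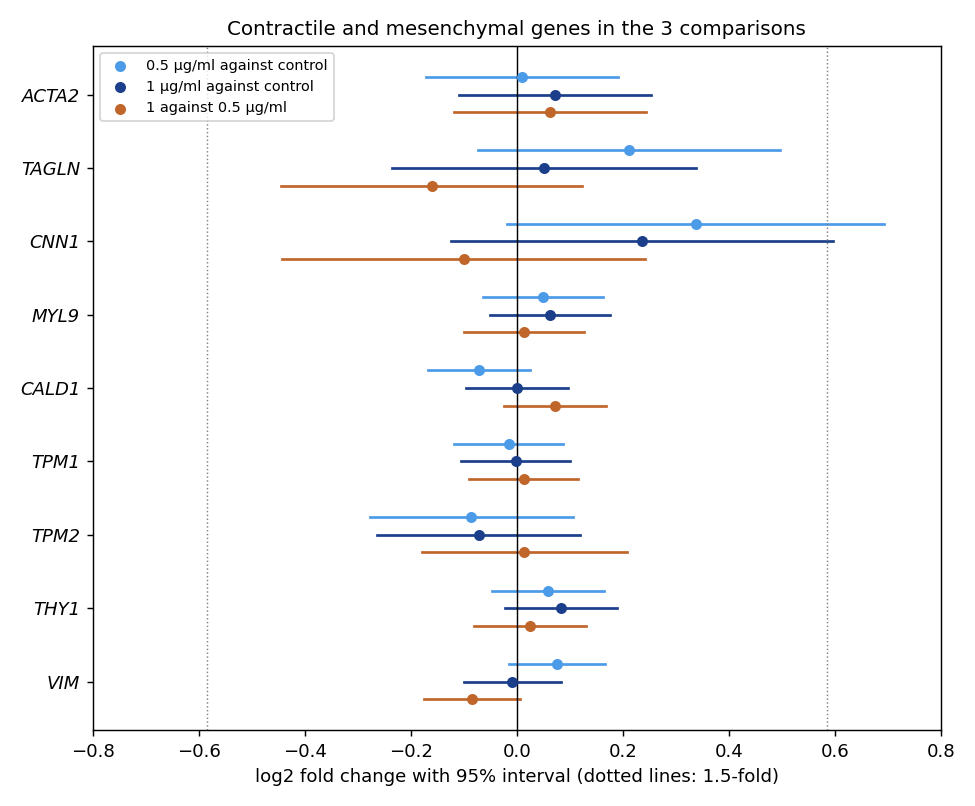
Log2 fold change (dot) with its 95% interval (line) from the edgeR fit for 9 genes in 3 comparisons: 0.5 µg/ml insulin against control, 1 µg/ml insulin against control, and 1 against 0.5 µg/ml insulin. Every interval drawn includes 0, and among them those of CNN1 against control alone reach past the dotted line at 1.5-fold.

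VIM was higher at the lower dose than in the other groups, by less than the test could call. Its levels were 4414, 4526 and 4404 CPM in control replicates 1 to 3, then 4637, 4738 and 4691 CPM at 0.5 µg/ml and 4403, 4496 and 4369 CPM at 1 µg/ml. Every library at 0.5 µg/ml lay above every control and above every library at 1 µg/ml, while the 1 µg/ml and control libraries overlapped. The log2 fold change was 0.08 ± 0.04 (SE) at 0.5 µg/ml against control, a 95% interval of 0.990- to 1.12-fold, with an adjusted p of 0.805. Between 1 and 0.5 µg/ml it was -0.08 ± 0.04 (SE; adjusted p = 0.846), and at 1 µg/ml against control -0.0084 ± 0.04 (SE; adjusted p = 1.00). The first 2 of these comparisons share the 0.5 µg/ml libraries, so their opposite signs are not independent of each other. VIM was the only one of the 9 genes whose groups did not overlap at 0.5 µg/ml against control, where 5.10% of all genes lay wholly higher and 5.61% wholly lower. VIM-AS1, which overlaps the exons of VIM, had no row in the count table.

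ACTA2 varied more between libraries than between groups. Control replicates 1 to 3 held 425, 384 and 383 CPM, those at 0.5 µg/ml 487, 345 and 369 CPM, and those at 1 µg/ml 451, 403 and 399 CPM. Replicate 1 at 0.5 µg/ml was the highest library and replicate 2 of the same dose the lowest, and all groups overlapped. The log2 fold change was 0.0096 ± 0.09 (SE; adjusted p = 0.989) at 0.5 µg/ml against control, and -0.16 without replicate 1 at 0.5 µg/ml. At 1 µg/ml against control it was 0.07 ± 0.09 (SE; adjusted p = 1.00), and between 1 and 0.5 µg/ml 0.06 ± 0.09 (SE; adjusted p = 0.945), or 0.23 with that library left out (adjusted p = 0.220).

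MYL9, whose phosphorylation activates myosin, had its replicates in the same order as ACTA2 at both insulin doses. In control, ACTA2 was highest in replicate 1 and MYL9 in replicate 3. MYL9 stood at 478, 478 and 496 CPM in control, 556, 470 and 478 CPM at 0.5 µg/ml and 519, 501 and 496 CPM at 1 µg/ml. The 3 libraries at 1 µg/ml lay above the 3 controls, with the nearest pair at 496.5 and 496.1 CPM, and the 0.5 µg/ml libraries overlapped with both. Against control its log2 fold change was 0.06 ± 0.05 (SE; adjusted p = 1.00) at 1 µg/ml and 0.05 ± 0.05 (SE; adjusted p = 0.871) at 0.5 µg/ml, and -0.0323 at 0.5 µg/ml without replicate 1 of that dose. Of all tested genes, 3.81% lay wholly higher and 3.92% wholly lower at 1 µg/ml than in control, against 1 and 0 of the 9 genes here.

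TAGLN and CNN1, the actin-binding proteins most closely tied to differentiated smooth muscle, had the widest spread. TAGLN was measured at 127, 109 and 79.1 CPM in control, 133, 118 and 114 CPM at 0.5 µg/ml and 138, 101 and 87.2 CPM at 1 µg/ml. CNN1 stood at 7.93, 5.24 and 5.41 CPM in control, 8.25, 7.25 and 7.83 CPM at 0.5 µg/ml and 9.26, 6.45 and 6.06 CPM at 1 µg/ml. In both genes replicate 1 was the highest library of every group, and all groups overlapped. Over the 9 libraries the highest level exceeded the lowest 1.74-fold for TAGLN and 1.77-fold for CNN1. The coefficient of variation was 17.9% for TAGLN and 19.4% for CNN1, where counting error alone gives 2.12% and 8.42%. The median was 6.75% over all tested genes, and 4.23% over the 2116 with a mean of at least 100 CPM. TAGLN is among these 2116 genes and CNN1 is not. For CNN1 both medians lie below its own counting error of 8.42%, so neither serves as a reference for a gene at its level.

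The largest fold change among the 9 genes was that of CNN1 at 0.5 µg/ml against control, a log2 value of 0.34 ± 0.17 (SE) with a 95% interval of 0.987- to 1.62-fold and an adjusted p of 0.791. With single libraries left out it ran from 0.23 (without control replicate 2) to 0.55 (without control replicate 1), with no call. At 1 µg/ml against control the CNN1 log2 fold change was 0.24 ± 0.17 (SE; adjusted p = 1.00), running from 0.024 without replicate 1 at 1 µg/ml to 0.45 without control replicate 1. Between the doses it was -0.10 ± 0.16 (SE; adjusted p = 0.953). For TAGLN the values were 0.21 ± 0.14 (SE; adjusted p = 0.805) at 0.5 µg/ml against control, 0.05 ± 0.14 (SE; adjusted p = 1.00) at 1 µg/ml against control and -0.16 ± 0.14 (SE; adjusted p = 0.901) between 1 and 0.5 µg/ml. Without control replicate 3, the library with the least TAGLN, the value at 0.5 µg/ml against control was 0.04 and that at 1 µg/ml turned to -0.12. Without control replicate 1 these values were 0.37 and 0.21, and without replicate 1 at 1 µg/ml the second was -0.16. Between the doses the TAGLN value ran from -0.37 without replicate 1 at 1 µg/ml to -0.024 without replicate 3 at 1 µg/ml, and was -0.090 without replicate 1 at 0.5 µg/ml.

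**Figure D3:**
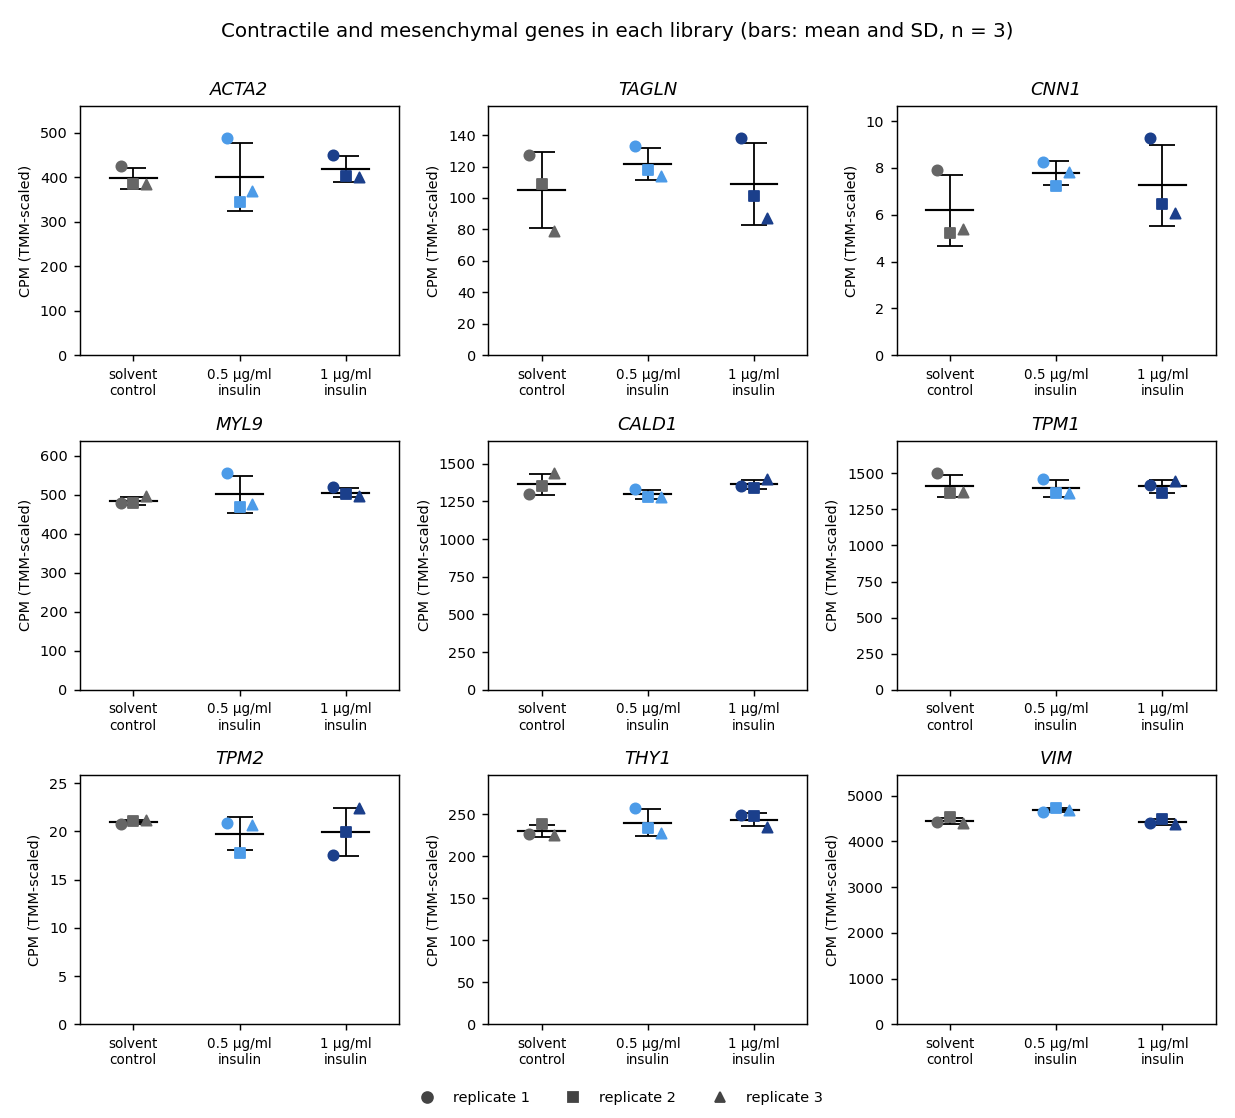
Level in CPM after TMM scaling for 9 genes, by group in order of dose, with a marker shape per replicate number; bars give the mean and SD of 3 libraries and every axis starts at 0. Replicate 1 (circle) is the highest library of each group for ACTA2, TAGLN and CNN1, and VIM is higher in all 3 libraries at 0.5 µg/ml than in the other 6.

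CALD1 and TPM1, whose products lie along actin filaments, had the smallest spread of the contractile genes, with coefficients of variation of 3.96% and 3.83% over the 9 libraries. CALD1 had 1297, 1352 and 1439 CPM in control, 1331, 1277 and 1281 CPM at 0.5 µg/ml and 1353, 1340 and 1396 CPM at 1 µg/ml. Its libraries at 1 µg/ml all lay above those at 0.5 µg/ml, and control overlapped with both. That difference of the doses was 0.07 ± 0.05 (log2, SE; adjusted p = 0.848), and at 0.5 µg/ml against control the value was -0.07 ± 0.05 (SE; adjusted p = 0.805). CALD1 was the only gene of the 9 wholly higher at 1 than at 0.5 µg/ml and VIM the only one wholly lower, where 5.85% and 6.31% of all genes were.

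TPM1 had 1502, 1361 and 1372 CPM in control, 1463, 1366 and 1361 CPM at 0.5 µg/ml and 1417, 1363 and 1448 CPM at 1 µg/ml. Its groups overlapped throughout, and its log2 fold changes against control were -0.02 ± 0.05 at 0.5 µg/ml and -0.0023 ± 0.05 at 1 µg/ml (SE), with 95% intervals inside 0.922- to 1.07-fold in both. TPM2, far scarcer, had 20.8, 21.1 and 21.1 CPM in control, 20.9, 17.8 and 20.6 CPM at 0.5 µg/ml and 17.5, 19.9 and 22.5 CPM at 1 µg/ml. Control libraries of TPM2 lay close together, with a coefficient of variation of 0.972%. Counting error alone gives 4.97% at the mean count of the 9 libraries, so that closeness is tighter than counting allows for. Among the insulin libraries, replicate 3 at 1 µg/ml lay above the controls and replicate 1 at 0.5 µg/ml within their range. The others lay below. The log2 fold change of TPM2 was -0.09 ± 0.09 at 0.5 µg/ml and -0.07 ± 0.09 at 1 µg/ml against control (SE; adjusted p = 0.865 and 1.00).

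THY1 had 226, 238 and 225 CPM in control, 258, 233 and 227 CPM at 0.5 µg/ml and 249, 247 and 234 CPM at 1 µg/ml. Its highest library was replicate 1 at 0.5 µg/ml, and the groups overlapped. The log2 fold change against control was 0.06 ± 0.05 at 0.5 µg/ml (SE; adjusted p = 0.839) and 0.08 ± 0.05 at 1 µg/ml (SE; adjusted p = 1.00). Without replicate 1 at 0.5 µg/ml the first value was 0.0026.

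As a group, 6 of the 9 genes lay above 0 and 3 below in each comparison, with a median log2 fold change of 0.05 at 0.5 µg/ml against control, 0.05 at 1 µg/ml against control and 0.01 between 1 and 0.5 µg/ml. The genes above 0 differed between the comparisons. Over all 12665 tested genes the share above 0 was 52.0%, 49.9% and 49.5% in the same order, with medians of 0.0043, -0.00016 and -0.0011. Without replicate 1 at 0.5 µg/ml the median of the 9 genes at 0.5 µg/ml against control turned to -0.0323. The median at 1 µg/ml against control ran from 0.013 (without replicate 1 at 1 µg/ml) to 0.076 (without replicate 3 at 1 µg/ml), and that between the doses from -0.033 (without replicate 2 at 0.5 µg/ml) to 0.056 (without replicate 1 at 0.5 µg/ml). No test was made of these medians.

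Several genes moved together from library to library, as the map of centred values shows. For 3 of the 9 genes, ACTA2, TAGLN and CNN1, replicate 1 was the highest library in all 3 groups, which held for 902 of 12665 tested genes (7.12%). Also 3 of the 9, ACTA2, MYL9 and THY1, were highest of all in replicate 1 at 0.5 µg/ml, as were 19.8% of all tested genes. Among the 36 pairs of genes, Pearson's r of log2 CPM over the 9 libraries was above 0 in 25 and below 0 in 11. The share over pairs of all tested genes was not computed, so these counts have no background. Without replicate 1 at 0.5 µg/ml some pairs turned below 0, among them TAGLN and MYL9 (0.264 to -0.0762) and TPM1 and THY1 (0.128 to -0.191). No pair turned from below to above 0. ACTA2 and MYL9 had the highest value, 0.867 (Spearman's coefficient 0.867), or 0.740 without replicate 1 at 0.5 µg/ml, followed by TAGLN and CNN1 at 0.828 (Spearman 0.883). CALD1 went against VIM with r = -0.715 (Spearman -0.833), or -0.445 within groups, and against TAGLN with r = -0.705 (Spearman -0.483), or -0.649 within groups. Within groups the value was 0.895 for ACTA2 and MYL9 and 0.830 for TAGLN and CNN1. These coefficients describe 9 libraries whose genes share depth and scaling, and are given without a p.

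**Figure D4:**
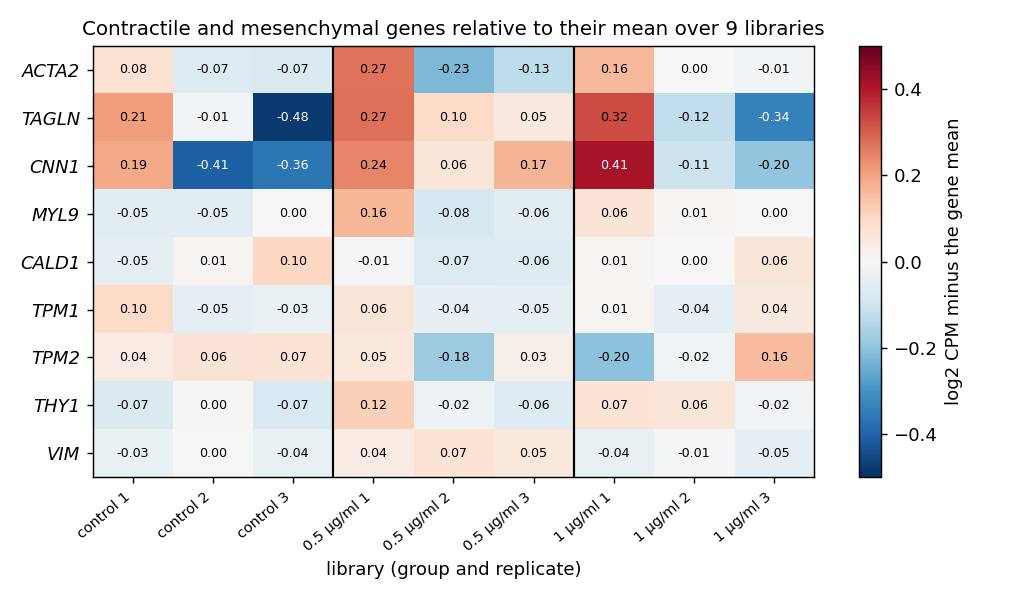
Log2 CPM of each gene minus its mean over the 9 libraries, with libraries in columns by group and replicate and the value printed in each cell. TAGLN and CNN1 range furthest, from -0.48 for TAGLN in control replicate 3 to 0.41 for CNN1 in replicate 1 at 1 µg/ml, and ACTA2 reaches 0.27 in replicate 1 at 0.5 µg/ml.

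Among the genes whose levels followed the mean centred value of the 9 genes most closely over the 9 libraries were S100A16 (Pearson 0.981, Spearman 0.967) and BLMH (Pearson 0.977, Spearman 0.933), out of 9484 other genes with a mean of at least 10 CPM. S100A16 is a calcium-binding protein and BLMH a cysteine protease. They are the extremes of a long list and are named as a description only.

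SRF and its coactivators MRTFA and MRTFB were expressed in all groups. SRF stood at 74.2 ± 2.55 CPM, MRTFA at 41.2 ± 3.23 CPM and MRTFB at 35.7 ± 1.37 CPM (SD, n = 9). No level was obtained for MYOCD, the smooth muscle coactivator of SRF. At 0.5 µg/ml against control the log2 fold change was 0.05 ± 0.05 for SRF, 0.12 ± 0.08 for MRTFA and 0.0057 ± 0.06 for MRTFB (SE). At 1 µg/ml against control the values were 0.04 ± 0.05, 0.05 ± 0.08 and -0.03 ± 0.06 in the same order (SE). None of the 6 passed the edgeR test (adjusted p from 0.805 to 1.00).

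Other contractile and adhesion genes, from a list that held the non-muscle actins, actinins, filamin, myosins, further tropomyosins and kinases, gave no calls either: 0 of 37 tested were called in each of the 3 comparisons. Their median log2 fold change was 0.03 at 0.5 µg/ml against control (24 above 0), -0.0079 at 1 µg/ml against control (15 above 0) and -0.02 between 1 and 0.5 µg/ml (13 above 0). In 15 of the 37 the highest library was replicate 1 at 0.5 µg/ml, where 19.8% of all genes had theirs. ACTB, the cytoplasmic beta actin, was 7831 CPM in that library and between 6653 and 7024 CPM in the other 8; FLNA, filamin A, an actin crosslinker, was 3871 CPM there and between 3178 and 3419 CPM elsewhere. The gene of smallest p was ROCK2, a kinase that promotes myosin phosphorylation, at 0.5 µg/ml against control: it stood at 74.5 ± 1.37 CPM in the insulin libraries, against 82.8 ± 2.58 CPM in the controls (SD, n = 3 each; log2 fold change -0.15 ± 0.05, SE; adjusted p = 0.765). At 1 µg/ml against control it was MYH10, a non-muscle myosin heavy chain, with 1.57 ± 0.287 CPM at 1 µg/ml and 1.18 ± 0.221 CPM in control (adjusted p = 1.00), and between 1 and 0.5 µg/ml FHL2, a LIM-domain cofactor, with 140 ± 2.67 CPM at 1 µg/ml and 155 ± 10.6 CPM at 0.5 µg/ml (adjusted p = 0.846).

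Mesenchymal regulators and surface markers gave 0 calls among 19 tested genes in each comparison. Their median log2 fold change was -0.0032 at 0.5 µg/ml against control, 0.0081 at 1 µg/ml against control and 0.01 between 1 and 0.5 µg/ml. SNAI1, a repressor of epithelial genes, had the smallest p against control at both doses, at 0.654 ± 0.0287 CPM in control, 0.319 ± 0.0825 CPM at 0.5 µg/ml and 0.381 ± 0.0263 CPM at 1 µg/ml (SD, n = 3 each). Of all tested genes, 5.61% lay wholly lower than control at 0.5 µg/ml and 3.92% at 1 µg/ml. For SNAI1 all 6 insulin libraries lay below the 3 controls, but the gene had 81 counts over the 9 libraries. These were 39 in control, 19 at 0.5 µg/ml and 23 at 1 µg/ml. At such counts, the SDs in control and at 1 µg/ml are smaller than counting error alone would give, so they understate the uncertainty. Its log2 fold change was -1.02 ± 0.41 at 0.5 µg/ml and -0.77 ± 0.39 at 1 µg/ml (SE; adjusted p = 0.780 and 1.00), and both values share the control libraries. Between 1 and 0.5 µg/ml the gene of smallest p was PDGFRA, a growth factor receptor of stromal cells, with 60.3 ± 7.36 CPM at 1 µg/ml and 49.9 ± 3.45 CPM at 0.5 µg/ml (SD, n = 3 each; log2 fold change 0.27 ± 0.11, SE; adjusted p = 0.846).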

How the data were processed

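Raw read counts per gene symbol and FPKM values for the same genes were deposited for 9 libraries. The submitters' processing notes list hg38 as the build and name Trimmomatic, HTSeq and DESeq, without version or role. Aligner, annotation and strand setting: not given in the sources used here. Dividing the deposited FPKM into the counts gave a constant length per gene (11053 of 11053 genes checked, each with 50 counts or more per library; tolerance 1e-04), so FPKM was used for levels per length and for limma as an alternative test. Counts were filtered with filterByExpr (minimum count 10, minimum total 15; 3318 genes removed), scaled by TMM and fitted in edgeR 4.0.16 in 1 model of 3 groups. The quasi-likelihood F-test was adjusted by Benjamini-Hochberg over all 12665 genes, called at 0.05, two-sided. The SE is the absolute log2 fold change over the square root of F. The pipeline was checked on simulated counts. CPM values are TMM-scaled. Limits from a count of 0 (3 counts) cover counting error only.

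Positions and transcripts are those of GENCODE release 29, which holds 15547 of the 15983 symbols (97.3%), and promoters those of RefSeq. The 10 genes, the lists and the tests were chosen with earlier results of these data known. The text names all 10 genes, SRF and its coactivators, the gene of smallest p per list and comparison, and the genes most alike, of which 1 is not reported here; ACTB and FLNA, and the examples of markers, were named after their values were seen. The alternatives tried are named with their effect at the end.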

Additional observations from a re-analysis of the deposited data

How the results depend on the processing

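The alternatives were RLE size factors, no count filter, a filter of 1 CPM in 3 libraries, DESeq2 1.42.0, only the compared groups in the model, a replicate block, edgeR's legacy quasi-likelihood, limma 3.58.1 on log2(FPKM + 0.1) and log2(FPKM + 1), and leaving out each library. None of the 9 genes was called in any of them (smallest adjusted p 0.220). Of 486 values, 453 kept their direction and 33 changed sign, none of these larger in size than 0.157; the cause was not tested.

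Same-numbered deviations correlated at -0.016 to 0.147, over 0.1 in 1 of 9 cases, and differently numbered ones at -0.101 to 0.062; not every library correlated best with its own number. The libraries were not treated as paired, and whether equal numbers share a batch cannot be told from the labels. The block moved the genes at an unadjusted p under 0.05 to 975 (776 without it) at 0.5 µg/ml against control, 354 (299 without it) at 1 µg/ml against control and 897 (720 without it) between the doses. With the replicate block, 2 genes were called at 0.5 µg/ml against control (BOLA2B and LOC107987373) and ACTA2 there was -0.0023; it was -0.015 with limma at either pseudocount, where TPM1 at 1 µg/ml against control was 0.0023 in both. With single libraries left out, 0 to 1 genes were called at 0.5 µg/ml against control (LOC102724200 without control replicate 2) and 0 to 2 between the doses (NDRG1 and TRIM22 without replicate 1 at 0.5 µg/ml).

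Log2 fold changes with single libraries left out ran as follows. At 0.5 µg/ml against control the median of the 9 genes ran from -0.032 to 0.077, ACTA2 from -0.16 to 0.11, TAGLN from 0.042 to 0.37, CNN1 from 0.23 to 0.55, MYL9 from -0.032 to 0.094, TPM1 from -0.050 to 0.032, TPM2 from -0.13 to -0.016, CALD1 from -0.11 to -0.032, THY1 from 0.0026 to 0.095 and VIM from 0.068 to 0.089. At 1 µg/ml against control the median ran from 0.013 to 0.076, ACTA2 from 0.014 to 0.12, TAGLN from -0.16 to 0.21, CNN1 from 0.024 to 0.45, MYL9 from 0.043 to 0.080, TPM1 from -0.027 to 0.045, TPM2 from -0.17 to 0.013, CALD1 from -0.033 to 0.041, THY1 from 0.067 to 0.11 and VIM from -0.019 to 0.0053. Between 1 and 0.5 µg/ml the median ran from -0.033 to 0.056, ACTA2 from -0.033 to 0.23, TAGLN from -0.37 to -0.024, CNN1 from -0.31 to 0.014, MYL9 from -0.031 to 0.095, TPM1 from -0.0069 to 0.048, TPM2 from -0.080 to 0.099, CALD1 from 0.055 to 0.092, THY1 from -0.012 to 0.081 and VIM from -0.095 to -0.075. ACTG2, with 3 counts in all, was too scarce at this depth for any fold change.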
